A study of Mus musculus with 24 samples.

Results

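DNA replication and cell division genes are 43 genes whose products license replication origins, copy DNA, supply its nucleotides, drive the cell cycle and carry out mitosis. They were chosen by gene symbol, and every probe carrying 1 of those symbols in the non-normalised signal table was taken. Under these symbols 41 genes had a probe, 74 probes in all among the 24613 probes with values. Of these, 55 probes of 35 genes were detected at a detection p below 0.01 on at least 3 of the 24 arrays and were tested, and the other 19 probes were detected on at most 2 arrays. Bub1, Ccna2, Ccnb2, Gmnn, Hells and Kif11 had no tested probe. Aurka and Cdt1 were present only under the older symbols Stk6 and Ris2, and these 2 probes are given apart. Probes of 1 gene are numbered from the brightest, as in Tk1-1 and Tk1-2.

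RNA came from primary neocortical neurons of foetal Swiss albino mice (gestation day 15 to 16), exposed on day 5 of culture to lactacystin, an inhibitor of the proteasome, and was measured on bead arrays (Illumina MouseRef-8 V1.1). The groups were 1 µM lactacystin for 5, 8, 15 and 24 h, 0.1 µM for 15 and 24 h (3 arrays each), and untreated cultures (6 arrays). Lactacystin was dissolved in dimethyl sulfoxide and diluted in Neurobasal medium, and the labels name neither a vehicle nor a collection time for the untreated cultures, so treatment cannot be told apart from these. Whether replicate arrays stand for separate cultures is not stated, so p-values measure the spread between these samples, which may be technical. Each of the 3 slides held 1 array of every treated group and 2 untreated arrays, and every treated group kept 1 slide position, which cannot be told apart from the treatment.

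The arrays had median signals of 52.2 to 81.0 intensity units and 11275 to 12221 detected probes. Neuronal markers were present (8 of 9 tested were detected on all 6 untreated arrays), as were markers of astrocytes, of the oligodendrocyte lineage and of neural progenitors and radial glia. Untreated replicates 5 and 6, which shared a slide, stood apart for the genes described. Both lay above the other 4 untreated arrays for 33 of the 55 tested probes (60%), against 16.3% of all tested probes, and the median difference was 0.48 on the log2 scale, against -0.03 over all tested probes. The difference was widest among mitotic genes, at 1.34 for Bub1b and 1.19 for Ccnb1-1, and went the other way for Ccnd1-1 (-0.70). Counts of the 55 probes that passed against untreated cultures are therefore given with and without these 2 arrays. Changes of single genes, of roles and of other gene lists use all 6 untreated arrays unless stated.

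Dividing cells load the MCM helicase onto origins before S phase, fire it with cyclin-dependent kinases and then copy DNA at forks built around PCNA, polymerases, FEN1 and DNA ligase I. Many of these genes are transcribed by E2F factors once the retinoblastoma protein has been phosphorylated, and mitotic genes are switched on later through CHR and CCAAT promoter elements. Neurons themselves have left the cell cycle, and in cortical cultures these transcripts are commonly ascribed to progenitors and glia that still divide, although some, such as Ccnd1, are also made by neurons.

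RefSeq promoter windows of GRCm38.p6, each running from 250 bases before to 50 bases after a start site, were found for 33 of the 43 genes (39 windows). The E2F-type letters TTTNNCGC, read on both strands, were in 12 of the 39 windows (30.8%) and in 5.17% of all 32851 windows. The CHR letters TTTGAA were in 10 (25.6%), against 17.9% of all windows, and CCAAT was in 24 (61.5%), against 37.4%. These motifs were picked with results of these data known, and a match describes letters, not a bound site. The windows of 4 genes with a probe that fell at 1 µM are shown, with matches on either strand in capitals. They are examples with E2F-type and CHR matches together, E2F-type matches only, CHR matches only and no match. On the minus strand lie Cdc2a, the gene now called Cdk1, at chr10:69352863-69353162 (2 E2F-type, 2 CHR and 3 CCAAT matches), Mcm6 at chr1:128359656-128359955 (3 E2F-type, 2 of them overlapping, and 2 CCAAT), Top2a at chr11:99024140-99024439 (2 CHR and 6 CCAAT) and Tk1 at chr11:117825965-117826264 (none of the letters searched).
Cdc2a: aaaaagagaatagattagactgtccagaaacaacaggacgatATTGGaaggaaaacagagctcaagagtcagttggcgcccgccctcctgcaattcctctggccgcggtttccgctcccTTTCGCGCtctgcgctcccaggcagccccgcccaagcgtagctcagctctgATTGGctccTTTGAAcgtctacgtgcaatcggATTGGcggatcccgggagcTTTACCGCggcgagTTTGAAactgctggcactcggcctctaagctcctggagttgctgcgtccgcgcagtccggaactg
Mcm6: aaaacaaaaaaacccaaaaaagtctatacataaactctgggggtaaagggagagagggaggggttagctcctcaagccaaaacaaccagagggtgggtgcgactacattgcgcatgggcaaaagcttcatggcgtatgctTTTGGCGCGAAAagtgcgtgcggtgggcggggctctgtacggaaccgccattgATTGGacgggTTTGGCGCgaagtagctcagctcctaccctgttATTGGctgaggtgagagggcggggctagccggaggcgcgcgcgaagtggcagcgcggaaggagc
Top2a: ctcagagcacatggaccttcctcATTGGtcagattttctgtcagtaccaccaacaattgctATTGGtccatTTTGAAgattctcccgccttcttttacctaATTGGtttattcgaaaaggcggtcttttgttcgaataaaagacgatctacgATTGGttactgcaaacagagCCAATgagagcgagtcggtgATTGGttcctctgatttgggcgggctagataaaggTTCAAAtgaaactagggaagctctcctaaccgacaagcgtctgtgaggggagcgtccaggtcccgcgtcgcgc
Tk1: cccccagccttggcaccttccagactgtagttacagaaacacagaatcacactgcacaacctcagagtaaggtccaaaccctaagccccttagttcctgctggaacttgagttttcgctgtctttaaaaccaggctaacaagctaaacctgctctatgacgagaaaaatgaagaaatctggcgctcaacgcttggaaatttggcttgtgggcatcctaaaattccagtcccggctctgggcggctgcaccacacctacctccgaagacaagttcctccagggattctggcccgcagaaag

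At 1 µM lactacystin for 15 h most of these genes were lower than in untreated cultures. Levels are given as log2 intensity, and a probe is said to have risen or fallen where the limma test across all 13547 tested probes gave a Benjamini-Hochberg adjusted p below 0.05. At that time 33 of the 55 probes fell and 5 rose, while 26.1% of all tested probes fell and 26.3% rose. The falls took in every role, namely 5 of 8 probes for nucleotide supply, 7 of 8 for DNA synthesis at the fork, 6 of 9 for replication licensing, 8 of 15 for cyclins, kinases and E2F1, and 7 of 15 for mitosis. The 5 rises were the 4 Ccnd1 probes and Mcm7-1. The median change over the 55 probes was -0.55, against a median between -0.03 and 0.03 over all probes in every comparison made. The arrays did not overlap for 25 of the lower probes and 1 of the higher ones. Overlap was not counted over all tested probes, so these counts have no share of the array to be set against. In bulk RNA, fewer cells of a type and less RNA per cell cannot be told apart.

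The course at 1 µM went from few changes to many. At 5 h, 1 probe rose (Mcm7-2) and none fell, against 5.19% and 3.20% of all probes. An unadjusted p below 0.05 was met by 11 of the 55, a count not made over all tested probes. At 8 h, 3 probes rose and 13 fell, against 18.7% and 18.3% of all probes, so the share that fell, 13 of 55, was near that of the array. Under median centring 3 rose and 3 fell, in the authors' ratios 3 and 5, with only the groups compared 1 and 1, and without 1 µM 8 h replicate 1 only 4 passed. At 24 h, 6 probes rose and 24 fell, against 26.6% and 28.3% of all probes, with a median change of -0.40. Against all 6 untreated arrays, the mitotic genes had the lowest median of all roles at 24 h, at -0.67, with 9 of 15 probes down. The cyclins, kinases and E2F1 had the highest, at 0.04. This ranking was not made without untreated replicates 5 and 6, whose mitotic means per array were 7.96 and 8.00. Those means were 7.04 to 7.42 in untreated replicates 1 to 4 and 6.92, 6.95 and 6.93 at 1 µM for 24 h.

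Untreated replicates 5 and 6 bear on these counts, above all at 5 h. Without them 26 probes rose and none fell at 5 h (10.5% and 10.7% of all probes), led by Bub1b, a kinase of the spindle checkpoint, at a log2 change of 1.02, by Plk1-1 at 0.77 and by Tk1-2 at 0.75. At 8 h 12 rose and 9 fell without them (21.9% and 23.1% of all probes), and the median moved to 0.04, against -0.15 with all 6 untreated arrays. The 15 h counts were 7 risen and 28 fallen (27.4% and 27.8%), with a median of -0.34, and the 24 h counts 6 and 20 (27.6% and 29.8%), with a median of -0.21. Slide by slide, the median changes at 15 h were -0.40, -0.30 and -0.85, the last on the slide of replicates 5 and 6, and at 5 h they were 0.32, 0.37 and -0.10. At 24 h they were -0.22, -0.11 and -0.68, so the median was below 0 on every slide at 15 and 24 h and not at 5 h.

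**Figure D1:**
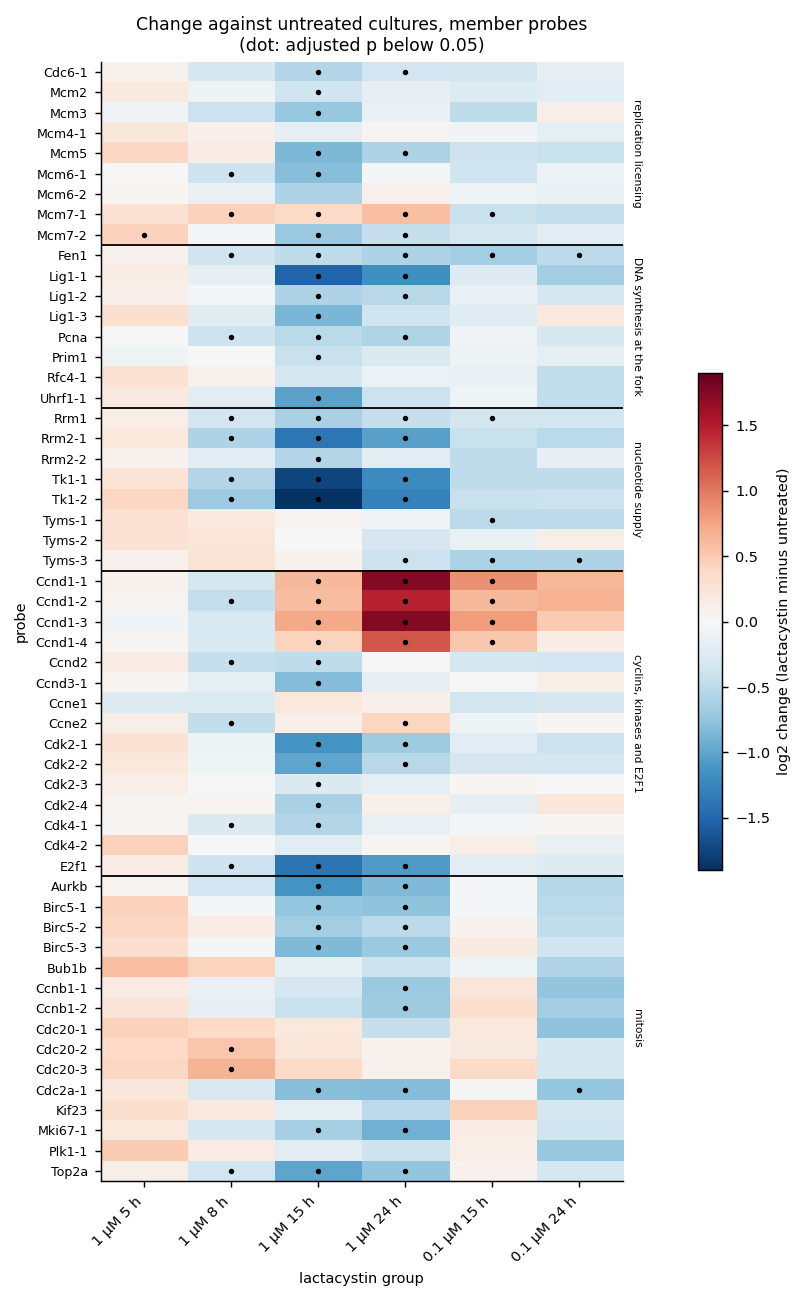
Log2 change (colour, lactacystin minus untreated) of the 55 tested probes, grouped by role, in the 6 lactacystin groups. A dot marks an adjusted p below 0.05. The column of 1 µM for 15 h holds the most dots (38), and the 4 Ccnd1 probes stand out in red at 15 and 24 h.

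Genes of nucleotide supply included the largest falls. Tk1 encodes thymidine kinase, which salvages thymidine for DNA synthesis. Tk1-1 read 5.01, 4.89 and 5.08 at 1 µM for 15 h, against a lowest, median and highest log2 intensity of 6.29, 6.62 and 7.38 in untreated cultures. Tk1-2 read 4.44, 4.61 and 4.54 at 15 h, against 5.95, 6.11 and 7.12 in untreated cultures. The groups did not overlap for either probe, and no 15 h array was detected, so the change is bounded. Set against the dimmest detected signals of each array, which serve as the bound wherever a group was detected on no array, Tk1-1 was at least 3.09-fold lower (adjusted p = 1.91e-08) and Tk1-2 at least 2.44-fold lower (adjusted p = 2.97e-07). By 24 h Tk1-1 read 5.42, 5.50 and 5.69, still below every untreated array, with a log2 change of -1.20 ± 0.17 (SE, adjusted p = 3.55e-06). At 8 h it read 6.04, 6.31 and 6.23, which overlapped the untreated range, with a change of -0.55 ± 0.17 (adjusted p = 0.0148).

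Rrm2 encodes the small subunit of ribonucleotide reductase, which makes deoxyribonucleotides. Rrm2-1 read 6.58, 6.87 and 6.98 at 1 µM for 15 h and 7.29, 6.94 and 7.23 at 24 h, against a lowest, median and highest of 7.70, 8.17 and 8.64 in untreated cultures. All 6 of these treated arrays lay below all untreated ones, with log2 changes of -1.38 ± 0.17 at 15 h (adjusted p = 7.27e-07) and -1.03 ± 0.17 at 24 h (adjusted p = 3.06e-05). The dim Rrm2-2 was undetected at 15 h and at least 1.13-fold lower (adjusted p = 0.0175). Rrm1, the large subunit of the same enzyme, fell by 0.62 at 15 h and by 0.44 at 24 h on the log2 scale.

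Tyms, thymidylate synthase, makes thymidylate afresh from deoxyuridylate and behaved unlike Tk1. None of its 3 tested probes passed at 1 µM for 15 h, where Tyms-3 read 6.16, 6.29 and 6.26, against 5.83, 6.15 and 6.51 (lowest, median, highest) in untreated cultures. At 24 h Tyms-3 read 5.52, 5.85 and 5.90 and had fallen by 0.41 (adjusted p = 0.00825), with overlap. Tyms-1, the brightest, changed by 0.06 at 15 h and -0.06 at 24 h, neither of which passed.

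**Figure D2:**
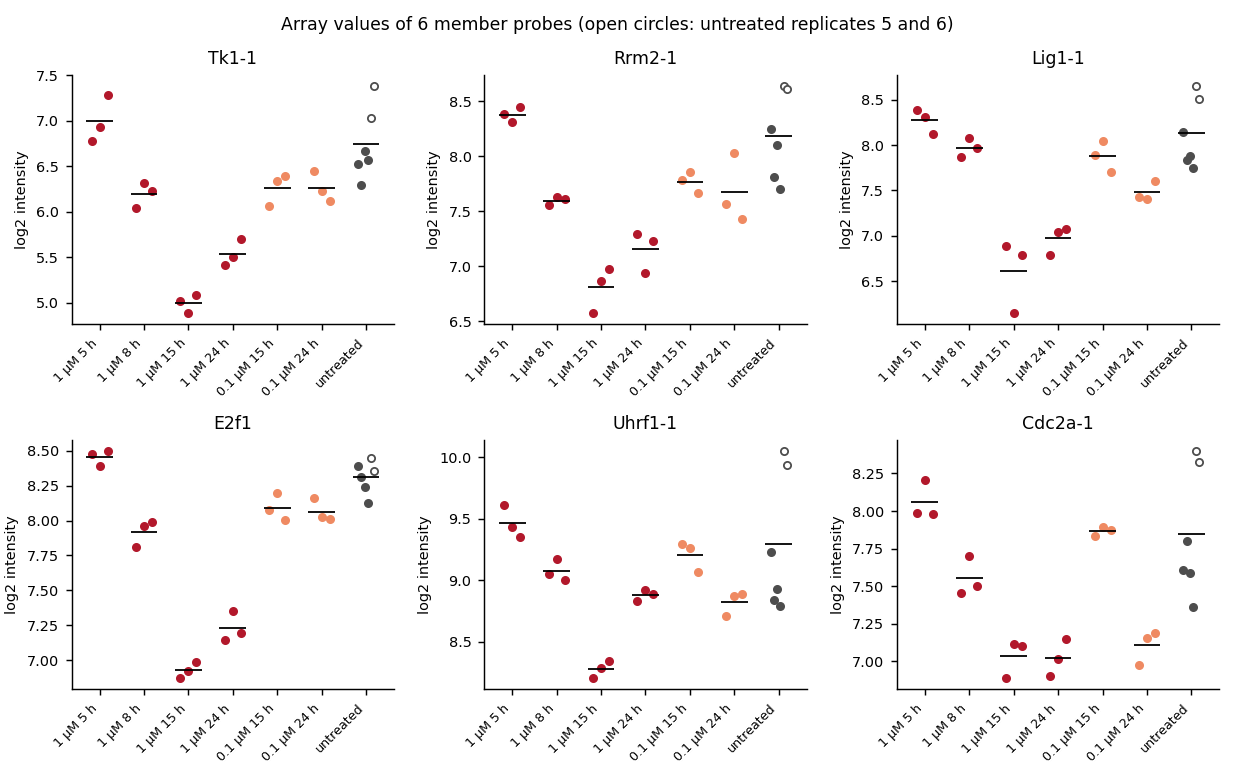
Log2 intensity on every array of Tk1-1, Rrm2-1, Lig1-1, E2f1, Uhrf1-1 and Cdc2a-1, with group means as lines. At 1 µM for 15 h all 3 arrays lie below all 6 untreated arrays in each panel, and open circles mark untreated replicates 5 and 6.

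At the replication fork, 6 genes were tested. Lig1 encodes DNA ligase I, which seals Okazaki fragments. Lig1-1 read 6.89, 6.15 and 6.79 at 1 µM for 15 h and 6.79, 7.04 and 7.08 at 24 h, against a lowest, median and highest of 7.75, 8.01 and 8.65 in untreated cultures. Every array at either time lay below the untreated range, with log2 changes of -1.52 ± 0.18 (adjusted p = 2.57e-07) and -1.16 ± 0.18 (adjusted p = 9.49e-06). The other Lig1 probes fell less at 15 h, by 0.59 for Lig1-2 with overlap, and at least 1.43-fold for Lig1-3, which was undetected there.

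Uhrf1 encodes the protein that brings maintenance DNA methylation to newly copied DNA. Uhrf1-1 read 8.20, 8.29 and 8.35 at 1 µM for 15 h, against 8.79, 9.08 and 10.05 (lowest, median, highest) in untreated cultures, a log2 change of -1.01 ± 0.21 (adjusted p = 0.000278) without overlap. The change was -0.67 without untreated replicates 5 and 6, which read 10.05 and 9.93. At 24 h the probe read 8.83, 8.92 and 8.89, inside the untreated range, and did not pass.

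Fen1 encodes the flap endonuclease of Okazaki fragment processing and was the fork gene that fell in the most groups. It read 8.60, 8.62 and 8.51 at 1 µM for 8 h, 8.29, 8.60 and 8.50 for 15 h and 8.39, 8.33 and 8.37 for 24 h, against 8.66, 8.88 and 9.43 (lowest, median, highest) in untreated cultures. These 3 groups did not overlap with untreated cultures, and the log2 changes were -0.37, -0.49 and -0.59. Pcna, the sliding clamp, fell at the same times by 0.39, 0.51 and 0.58. Prim1, a primase subunit, was undetected at 15 h and at least 1.13-fold lower, and Rfc4-1, a subunit of the clamp loader, changed by -0.33 ± 0.15 at 15 h and did not pass (adjusted p = 0.0716).

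Among the licensing genes, Mcm2, Mcm3, Mcm5 and Mcm6 encode subunits of the MCM helicase, and Cdc6 helps load it. At 1 µM for 15 h Mcm5 read 8.19, 8.26 and 8.41, against 8.63, 9.11 and 9.73 (lowest, median, highest) in untreated cultures, a log2 change of -0.85 ± 0.18 (adjusted p = 0.000478). Mcm6-1 read 7.0, 7.04 and 7.27, against 7.47, 7.94 and 8.41 in untreated cultures, a change of -0.81 ± 0.14 (adjusted p = 3.37e-05). Both were below the untreated range. Mcm6-2, the other tested probe of Mcm6, was detected on all 24 arrays and did not pass at this time. Mcm3, undetected at 15 h, was at least 1.33-fold lower, and Cdc6-1 and Mcm2 fell by 0.55 and 0.38. Mcm4-1, the brightest probe of the group, changed by -0.18 ± 0.10 and did not pass (adjusted p = 0.145).

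The 2 Mcm7 probes disagreed, so no single direction can be given for this MCM subunit. Mcm7-1 read 9.36, 9.27 and 9.33 at 1 µM for 15 h and 9.51, 9.60 and 9.45 at 24 h, against 8.59, 8.95 and 9.54 (lowest, median, highest) in untreated cultures. Mcm7-2 read 5.69, 5.92 and 6.42 at 15 h and 6.37, 6.26 and 6.23 at 24 h, against 6.45, 6.77 and 6.89 in untreated cultures. Mcm7-1 rose by 0.37 ± 0.14 (adjusted p = 0.0314) and 0.57 ± 0.14 (adjusted p = 0.0015) with overlap, since untreated replicate 5 read 9.54, and Mcm7-2 fell by 0.71 ± 0.14 (adjusted p = 0.000146) and 0.43 ± 0.14 (adjusted p = 0.00989) without overlap. At 8 h Mcm7-1 had risen by 0.44, and at 5 h Mcm7-2 had risen by 0.44 ± 0.14 (adjusted p = 0.0462), reading 7.05, 7.16 and 7.27, above all untreated arrays. Ris2, the probe of the licensing factor Cdt1, rose at 1 µM by 0.43 at 5 h, 0.41 at 8 h, 0.31 at 15 h and 0.61 at 24 h, where its 8.05, 8.13 and 7.99 lay above the untreated 7.11, 7.37 and 7.96 (lowest, median, highest).

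**Figure D3:**
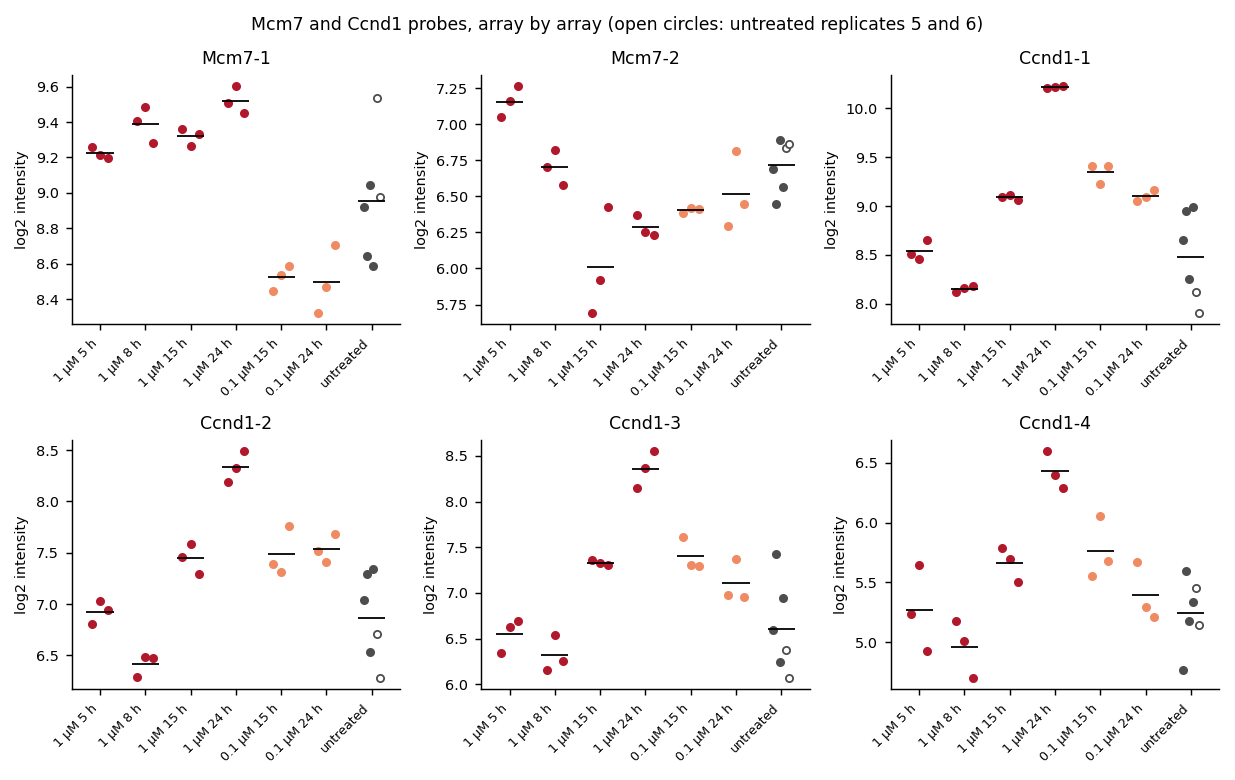
Log2 intensity on every array of the 2 Mcm7 and 4 Ccnd1 probes, with group means as lines and untreated replicates 5 and 6 as open circles. Mcm7-1 is high and Mcm7-2 low at 1 µM for 15 and 24 h, and all 4 Ccnd1 probes are highest at 1 µM for 24 h.

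Among cyclins, kinases and E2F1, the genes moved in both directions. E2f1, a transcription factor that drives S phase genes, read 6.87, 6.92 and 6.99 at 1 µM for 15 h and 7.15, 7.35 and 7.19 at 24 h, against 8.13, 8.33 and 8.45 (lowest, median, highest) in untreated cultures. The untreated arrays lay close together, and every array at both times was below them. The log2 changes were -1.38 ± 0.08 (adjusted p = 6.29e-12) and -1.08 ± 0.08 (adjusted p = 2.5e-10), and E2f1 had already fallen by 0.39 at 8 h (adjusted p = 0.000631), reading 7.81, 7.96 and 7.99. Leaving out untreated replicates 5 and 6 changed it little, to -1.34 at 15 h.

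Cdk2 encodes the kinase that cyclin E activates at the start of S phase. Cdk2-1 read 7.29, 7.53 and 7.37 at 1 µM for 15 h, against 8.23, 8.46 and 9.03 (lowest, median, highest) in untreated cultures. Cdk2-2 read 6.54, 6.84 and 7.17 at 15 h, against 7.68, 7.80 and 8.14 in untreated cultures. Neither pair of groups overlapped, and the probes fell by 1.13 ± 0.13 (adjusted p = 1.96e-07) and 1.00 ± 0.12 (adjusted p = 2.59e-07). The dimmer Cdk2-3 and Cdk2-4 also fell at 15 h, by 0.28 and 0.61, with overlap. Cdk4-1, the kinase of D-type cyclins, and Ccnd3-1, a D-type cyclin, fell by 0.55 and 0.82 at 15 h, and neither passed at 24 h.

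Ccnd1 encodes cyclin D1, the D-type cyclin that growth signals induce, and was the only gene described whose 4 probes all rose at 1 µM for 15 and 24 h and at 0.1 µM for 15 h. Ccnd1-1 read 9.09, 9.12 and 9.06 at 1 µM for 15 h and 10.21, 10.21 and 10.23 at 24 h, against 7.91, 8.46 and 8.99 (lowest, median, highest) in untreated cultures. It was above every untreated array at both times, with log2 changes of 0.61 ± 0.17 (adjusted p = 0.00407) and 1.74 ± 0.17 (adjusted p = 1.31e-08). Ccnd1-2 read 7.46, 7.59 and 7.30 at 15 h and 8.19, 8.33 and 8.49 at 24 h, against 6.28, 6.88 and 7.34 in untreated cultures. Ccnd1-3 read 7.36, 7.32 and 7.31 at 15 h and 8.14, 8.37 and 8.55 at 24 h, against 6.07, 6.48 and 7.43 in untreated cultures. Ccnd1-4, the dimmest, read 5.79, 5.69 and 5.51 at 15 h and 6.60, 6.40 and 6.29 at 24 h, against 4.76, 5.25 and 5.60 in untreated cultures. At 24 h the 4 probes rose by 1.18 to 1.75 with no overlap, while at 15 h they rose by 0.42 to 0.72 and only Ccnd1-1 cleared the untreated range. At 8 h Ccnd1-2 read 6.29, 6.48 and 6.48, inside the untreated range, and had fallen by 0.45 ± 0.18 (adjusted p = 0.0499). The other Ccnd1 probes changed by -0.28 to -0.33 at 8 h and did not pass.

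Ccne2, a cyclin E, was near the limit of detection. It read 4.39, 4.50 and 4.69 at 1 µM for 8 h and 5.46, 5.15 and 5.60 at 24 h, against 4.64, 4.98 and 5.45 (lowest, median, highest) in untreated cultures. No array at 8 h and 2 of 6 untreated arrays detected it, so no fold is given for the fall at 8 h (adjusted p = 0.027). At 24 h, where all 3 arrays detected it, it rose by 0.41 ± 0.16 on the log2 scale (adjusted p = 0.0381), against untreated cultures that mostly did not, with overlap and with an adjusted p of 0.0674 without untreated replicates 5 and 6. Ccnd2, another D-type cyclin, fell by 0.44 at 8 h and 0.49 at 15 h, with overlap.

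Among mitotic genes, 7 of 15 probes fell at 15 h and 9 at 24 h. Aurkb encodes the kinase of the chromosomal passenger complex. It read 5.14, 5.45 and 5.87 at 1 µM for 15 h and 5.62, 5.74 and 5.96 at 24 h, against 6.11, 6.50 and 7.36 (lowest, median, highest) in untreated cultures. No array overlapped, and the log2 changes were -1.13 ± 0.21 (adjusted p = 7.79e-05) and -0.84 ± 0.21 (adjusted p = 0.00139). On the slide of untreated replicates 5 and 6 the change at 15 h was -2.06, against -0.90 and -0.44 on the other slides.

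Top2a encodes topoisomerase II alpha, which untangles sister chromatids. It read 7.0, 7.0 and 7.28 at 1 µM for 15 h and 7.03, 7.44 and 7.58 at 24 h, against 7.91, 8.04 and 8.35 (lowest, median, highest) in untreated cultures. The groups were apart at both times, with changes of -1.01 ± 0.13 (adjusted p = 6.92e-07) and -0.75 ± 0.13 (adjusted p = 3.1e-05). The 3 slides gave -0.94, -0.95 and -1.13 at 15 h.

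Cdc2a encodes CDK1, the kinase that drives entry into mitosis. Cdc2a-1 read 6.89, 7.12 and 7.10 at 1 µM for 15 h and 6.90, 7.02 and 7.15 at 24 h, against 7.36, 7.70 and 8.40 (lowest, median, highest) in untreated cultures. Every array at these times was below the untreated range, with changes of -0.81 ± 0.17 (adjusted p = 0.000305) and -0.83 ± 0.17 (adjusted p = 0.000235). Mki67-1, a marker of cycling cells, fell by 0.63 at 15 h and 0.91 at 24 h, and the 3 probes of Birc5 (survivin) fell by 0.66 to 0.84 at 15 h and by 0.50 to 0.76 at 24 h. Ccnb1-1 and Ccnb1-2, cyclin B1, fell at 24 h only, by 0.70 and 0.67, and neither passed without untreated replicates 5 and 6. Cdc20, the activator of the anaphase-promoting complex, rose at 8 h by 0.53 for Cdc20-2 and 0.64 for Cdc20-3, and Plk1-1, Bub1b and Kif23 passed at no time at 1 µM with all 6 untreated arrays.

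**Figure D4:**
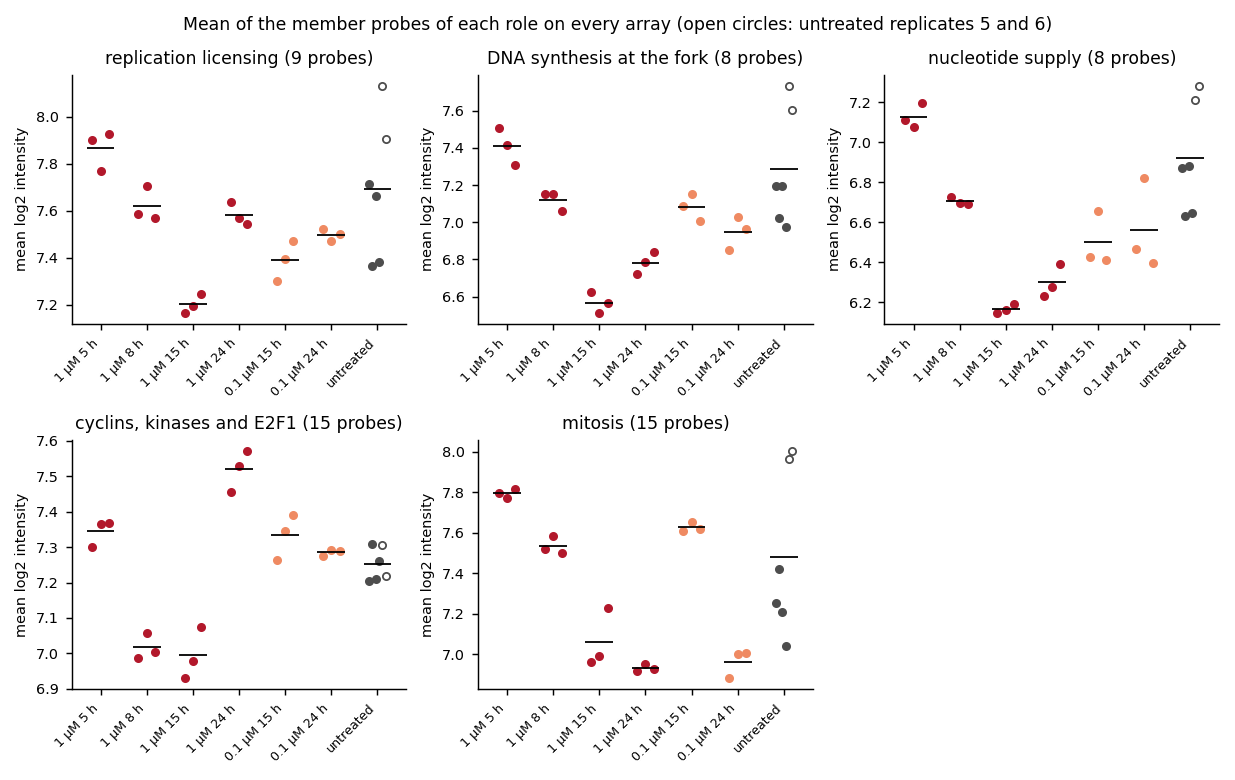
Mean log2 intensity of the tested probes of each role on every array, with group means as lines. Nucleotide supply and fork genes are lowest at 1 µM for 15 h, mitotic genes are low at 1 µM for 15 and 24 h and at 0.1 µM for 24 h, and untreated replicates 5 and 6 (open circles) lie highest of the untreated arrays except among cyclins, kinases and E2F1.

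At the lower dose few of these probes passed against untreated cultures, and the count at 24 h depended strongly on the scaling. At 0.1 µM for 15 h, 4 rose and 5 fell, against 7.50% and 6.88% of all probes. The rises were the 4 Ccnd1 probes (0.52 to 0.87), of which Ccnd1-1 read 9.41, 9.22 and 9.41, above every untreated array. The falls were Fen1 (-0.64), Tyms-3 (-0.60), Tyms-1 (-0.49), Mcm7-1 (-0.43) and Rrm1 (-0.35). At 24 h no probe rose and 3 fell, against 0.627% and 1.11% of all probes, and the median change was -0.33. An unadjusted p below 0.05 was met by 30 of the 55, a count not made over all tested probes. Without untreated replicates 5 and 6, 8 rose and 2 fell at 15 h (7.17% and 7.76%), and none rose and 1 fell at 24 h (0.140% and 0.229%). At 24 h, in place of 3, 9 probes changed with slide as a block and 23 fell under median centring. In the authors' ratios 22 fell and 1 rose, none passed with only the groups compared and 19 passed without untreated replicate 4. Over all tested probes the count that passed at 24 h moved too, from 235 to 2057 under median centring. It moved to 0 with only the groups compared. The larger count under median centring was therefore not confined to these genes. For slide as a block, the authors' ratios and leaving out untreated replicate 4, no count over all tested probes is given here. At 15 h, 4 rose and 2 fell under cyclic loess, 3 rose and 7 fell in the authors' ratios, none passed with only the groups compared, and 3 passed without 0.1 µM replicate 1.

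The 3 probes that fell at 0.1 µM for 24 h were Cdc2a-1, Tyms-3 and Fen1. Cdc2a-1 read 6.97, 7.16 and 7.19, against 7.36, 7.70 and 8.40 in untreated cultures, a change of -0.74 ± 0.17 (adjusted p = 0.0316), and it was the 1 probe that still passed without untreated replicates 5 and 6 (-0.48, adjusted p = 0.0454). Tyms-3 read 5.59, 5.75 and 5.38, against 5.83, 6.15 and 6.51 in untreated cultures, a change of -0.59 ± 0.13 (adjusted p = 0.0255). Fen1 read 8.37, 8.36 and 8.65, against 8.66, 8.88 and 9.43, a change of -0.49 ± 0.13 (adjusted p = 0.0484). None of these groups overlapped with untreated cultures. Each of the 3 calls was lost on leaving out any 1 of the 0.1 µM arrays of 24 h. Stk6, the probe of the mitotic kinase Aurka, read 6.91, 6.85 and 6.91 at 24 h, against 7.11, 7.57 and 8.46 in untreated cultures, and fell by 0.81 ± 0.20 (adjusted p = 0.0421).

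Compared directly at 15 h, the doses differed for 27 of the 55 probes. At 1 µM 23 were lower than at 0.1 µM and 4 higher, against 23.5% and 25.0% of all probes. The differences themselves use no untreated array, though the fit took its spread, scaling and filter from all 24 arrays. The arrays of the doses did not overlap for 30 lower and 4 higher probes, whether or not the test was passed. Overlap was not counted over all tested probes here either. The slides gave medians of -0.47, -0.38 and -0.36. Tk1-1 read 5.01, 4.89 and 5.08 at 1 µM, against 6.06, 6.33 and 6.39 at 0.1 µM, at least 2.21-fold lower (adjusted p = 1.6e-05). E2f1 differed by -1.16 ± 0.09 (adjusted p = 1.56e-09), Lig1-1 by -1.27 ± 0.21 (adjusted p = 2.43e-05), Aurkb by -1.10 ± 0.24 (adjusted p = 0.000532) and Top2a by -1.08 ± 0.15 (adjusted p = 2.4e-06). Higher at 1 µM were Mcm7-1 (0.80), Tyms-3 (0.67), Tyms-1 (0.55) and Ccne1 (0.55), a cyclin E.

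At 24 h the doses differed for fewer probes. At 1 µM 7 were lower and 5 higher than at 0.1 µM, against 25.8% and 25.5% of all probes, so the share of these genes that differed was under that of the array. Under median centring and in the authors' ratios 3 were lower and 5 higher. The lower ones were Tk1-1, Tk1-2, E2f1, Rrm2-1, Lig1-1, Mki67-1 and Top2a (-0.41 to -0.88). The higher ones were Mcm7-1 (1.02 ± 0.16, adjusted p = 1.5e-05) and the 4 Ccnd1 probes (0.80 to 1.25). Ccnd1-1 read 10.21, 10.21 and 10.23 at 1 µM, against 9.05, 9.10 and 9.17 at 0.1 µM. In a test of whether the dose difference itself changed between the times, 5 probes passed, all with a larger value at 24 h, against 7.82% of all probes in that direction and 6.77% in the other. The share of the 55 probes that passed was near that of the array. Those that passed were Ccnd1-1, Ccnd1-3, Ccnd1-4, Cdk2-1 and Top2a.

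Between 8 and 15 h at 1 µM, 19 probes fell and 5 rose, against 15.8% and 14.1% of all probes. The groups did not overlap for 36 lower and 5 higher probes, a count not made over all tested probes. The slides gave medians of -0.40, -0.28 and -0.40. By the brightest probe of each of the 35 genes, 13 fell and 2 rose, against 17.3% and 14.7% of all genes. The largest called falls were Lig1-1 (-1.36 ± 0.21), Cdk2-1 (-1.04 ± 0.15), Mcm5 (-1.0 ± 0.21) and E2f1 (-0.99 ± 0.09), beside Tk1-1, at least 2.11-fold lower at 15 h. The rises were Ccnd1-1 to Ccnd1-3 (0.94 to 1.03), Ccnd1-4, at least 1.47-fold higher, and Ccne2, undetected at 8 h and given no fold.

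Between 15 and 24 h at 1 µM, 10 probes rose and 1 fell, against 5.21% and 5.01% of all probes. The rises were the 4 Ccnd1 probes (0.77 to 1.13), Mcm6-1 (0.78 ± 0.16), Cdk2-4 (0.71), Ccnd3-1 (0.67), Cdk2-2 (0.47), Cdk4-1 (0.41) and E2f1 (0.30 ± 0.09), and the fall was Tyms-3 (-0.48). Mcm6-1 read 7.92, 7.84 and 7.88 at 24 h, against 7.0, 7.04 and 7.27 at 15 h. Mcm6-1 at 24 h was inside the untreated range, whereas E2f1 at 24 h was still below it. No probe of the 15 for mitosis passed in this step.

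At 0.1 µM, 6 probes fell between 15 and 24 h and none rose, against 5.96% and 4.69% of all probes, and the 6 were all among the 15 mitotic probes. The median change of these 15 was -0.54 at 0.1 µM and -0.20 at 1 µM, lower at 24 h at both doses. Plk1-1, a kinase of mitotic entry and spindle assembly, read 7.70, 7.85 and 7.95 at 24 h, against 8.62, 8.71 and 8.69 at 15 h, a change of -0.84 ± 0.22 (adjusted p = 0.0157). Cdc20-1 read 7.18, 7.56 and 7.46 at 24 h, against 8.21, 8.31 and 8.58 at 15 h (-0.97 ± 0.24, adjusted p = 0.0118). Cdc2a-1 read 6.97, 7.16 and 7.19 at 24 h, against 7.84, 7.90 and 7.87 at 15 h (-0.76 ± 0.19, adjusted p = 0.0135). In all 3 the later arrays lay below all the earlier ones. Ccnb1-1 (-0.98), Cdc20-3 (-0.71) and Mki67-1 (-0.53) also fell, and with slide as a block 11 probes changed, adding Birc5-3, Ccnb1-2, Top2a, Kif23 and Mcm3. The difference of this step between the doses was tested, and among mitotic probes it passed for Top2a alone, which is none of the 6. The count was 3 without any 1 of the 0.1 µM arrays of 15 h, and 1 without replicate 1 of 24 h.

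**Figure D5:**
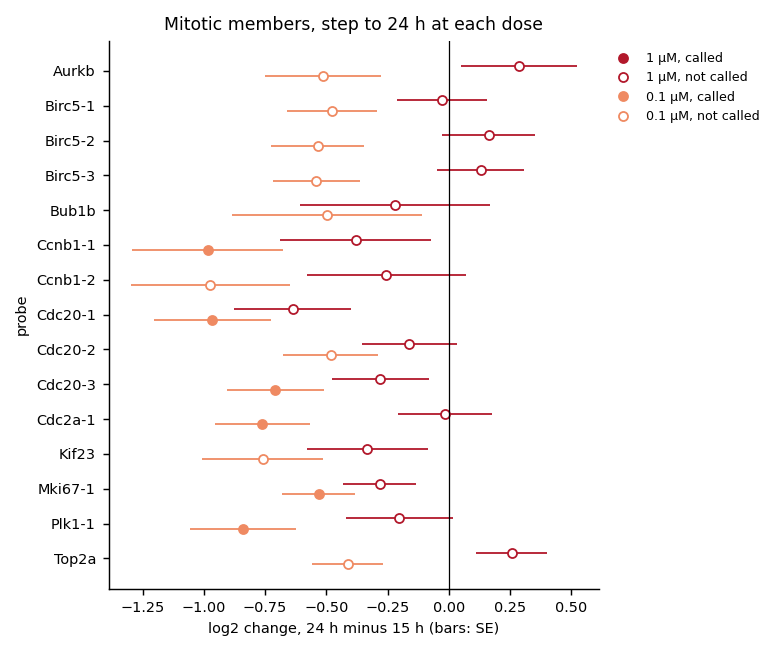
Log2 change between 15 and 24 h (24 h minus 15 h, bars SE) of the 15 mitotic probes at 1 µM and 0.1 µM, with filled points where the adjusted p was below 0.05. The 6 filled points are all at 0.1 µM and negative, and at 1 µM the points lie on both sides of 0.

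Other genes of the same pathways were read from fixed lists by the brightest probe of each gene, 10886 genes in all. At 1 µM for 15 h, 27.4% of all genes fell and 26.9% rose. Of 30 tested genes of replication origins and forks, 12 fell and 4 rose, so falls outnumbered rises in this list (median change -0.16). Among them Dut, which keeps uracil out of DNA and was detected on 1 of 3 arrays at 15 h, fell by 1.18 ± 0.13 (adjusted p = 6.86e-08), Pola2, of the primase complex, by 0.87, Rpa2 and Rpa3, of the single-strand binding protein, by 0.81 and 0.75, and Chaf1a, a chromatin assembly factor, by 0.69. Of 34 tested genes of mitosis and cytokinesis, 13 fell and 3 rose. Counts of these lists use all 6 untreated arrays. Summed intensities of the mitosis and cytokinesis list at 1 µM were 5437 to 5788 at 15 h and 4901 to 5116 at 24 h. These sums lay inside the 4872 to 6129 of untreated replicates 1 to 4 and below the 9260 and 9525 of replicates 5 and 6. Nusap1, a spindle protein, fell by 1.01, Spc24, of the kinetochore, by 0.97 and Cdca3 by 0.70, while Ccnf, cyclin F (detected on 4 of 6 untreated arrays), rose by 1.53 ± 0.13 (adjusted p = 2.73e-09) and by 2.48 at 24 h. The replication list had 2 risen and none fallen at 1 µM for 5 h (5.57% and 3.54% of all genes), 7 and 2 at 8 h (19.7% and 19.4%) and 3 and 11 at 24 h (26.5% and 30.3%). At 0.1 µM none rose and 5 fell at 15 h (8.05% and 7.45% of all genes), and none rose and 1 fell at 24 h (0.579% and 1.24%). The mitosis and cytokinesis list, set against the same shares, had 6 of 34 risen and none fallen at 1 µM for 5 h, 2 and none at 8 h, and 3 and 16 at 24 h. At 0.1 µM none rose, 1 fell at 15 h and 5 fell at 24 h. In the step between 15 and 24 h at 0.1 µM, 7 of the 34 genes of mitosis and cytokinesis fell and none rose, against 6.81% and 4.26% of all genes.

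Genes that restrain the cycle moved in both directions. Of 9 tested genes in a list of kinase inhibitors and p53 targets, 4 rose and 3 fell at 1 µM for 15 h, against 26.9% and 27.4% of all genes. Cdkn1a, the inhibitor p21, rose by 1.77 ± 0.12 at 15 h (adjusted p = 3.98e-11) and by 2.33 at 24 h, Gadd45a, a damage response gene, by 3.39 and 3.26, and Ccng1, cyclin G1, by 1.99 and 2.93. Cdkn2b, detected on 1 of 6 untreated arrays and so measured against a level mostly not above background, rose (adjusted p = 0.00221 and 0.000688). Cdkn2d fell by 0.91 and 0.76, Cdkn2c by 0.77 and 0.52, and Cdkn1c by 0.38 and 0.42. Cdkn1b (p27) changed by -0.07 at 15 h and did not pass. At 0.1 µM for 15 h Cdkn1a rose by 0.40 and Ccng1 by 0.61, and no gene of this list passed at 24 h.

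Of 9 tested genes of the E2F and RB family, 5 rose and 2 fell at 1 µM for 15 h, against the same 26.9% and 27.4% of all genes. E2f2, an activating E2F detected on 1 of 3 arrays at 15 h, fell by 1.48 ± 0.20 (adjusted p = 1.94e-06) and Rbl1, the pocket protein p107, by 0.91. E2f6, a repressing E2F, rose by 1.05 ± 0.10 (adjusted p = 8.33e-09), Lin54, of the DREAM complex, by 1.04, E2f3 by 0.78, Tfdp1, the E2F partner, by 0.53 and Rb1 by 0.34. Of 11 other cyclins and kinases, 3 rose and 4 fell, a share near that of all genes (26.9% and 27.4%). Cdk5, the kinase of postmitotic neurons, fell by 1.13 ± 0.10 (adjusted p = 4.27e-09), and Ccnt1 and Cdk9, of the transcription elongation kinase, rose by 1.00 and 0.49.

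Markers of the cell types in the cultures moved with the treatment, and their part in the results above was not tested. At 1 µM for 15 h, when 26.9% of all genes rose and 27.4% fell, 7 of 9 neuronal markers fell, with summed intensities of 19879 to 20624, against 30594 to 37381 in untreated cultures. Of 8 markers of the oligodendrocyte lineage, 5 fell, with sums of 2722 to 2906, against 11394 to 13989 in untreated cultures. Of 6 astrocyte markers 4 fell (9908 to 11070, against 12114 to 18281 in untreated cultures), and of 9 markers of progenitors and radial glia 6 fell and 2 rose (6940 to 7880, against 4934 to 6974 in untreated cultures). Microglial markers were dim (2 rose and 2 fell of 5, with sums of 283 to 297, against 184 to 283 in untreated cultures), both tested meningeal markers fell (200 to 281, against 668 to 939 in untreated cultures), and the 1 tested endothelial marker, Cldn5, did not pass. Pecam1, Cdh5, Col1a1 and Col3a1 were detected on too few arrays to be tested. Vim, an intermediate filament gene of radial glia and astrocytes, made up 78.4% to 80.8% of the progenitor sum at 1 µM for 15 h and 53.9% to 64.5% in untreated cultures. Without Vim the progenitor sums were 1404 to 1704 at 1 µM for 15 h, below the 2220 to 2595 of untreated cultures. At 0.1 µM for 15 h, 4 of 9 progenitor and 4 of 6 astrocyte markers rose (8.05% of all genes), with progenitor sums of 8876 to 10116, or 2621 to 2905 without Vim. In the step to 24 h at this dose 5 of 9 progenitor markers fell (6.81% of all genes), and the sums at 24 h were 5183 to 5766, or 2039 to 2157 without Vim, beside the mitotic genes. Untreated replicates 5 and 6 had progenitor sums of 5741 and 6660, against 4934 to 6974 in the other untreated arrays (2324 and 2361, against 2220 to 2595, without Vim), whereas their mitosis and cytokinesis sums were 9260 and 9525, against 4872 to 6129.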

How the data were processed

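Per the file headers and labels, the arrays were scanned and summarised in BeadStudio without normalisation, and the deposited table gives the mean bead signal of each probe as an intensity. No source used here gives the background step before deposit. A detection score between 0 and 1, deposited as a fraction in a gene-level table per the file headers, was carried to each probe as a detection p. The authors' normalised table holds a linear ratio (signal over the array median, then over the mean of the untreated arrays, recomputed here within 1.87e-05), and the deposited series matrix holds the same ratio; they served as an alternative. Of the tables' per-sample columns, 144 were not used.

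Treated columns labelled replicate 1, 2 and 3 match the scanner arrays labelled 3, 1 and 2 of the same group, and slides are those of the matching arrays. Probe identifiers in the deposited table are out of step with its annotation, so probes were named by symbol and accession, which match the gene-level values (99.9% of 14487 single-probe genes).

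Signals were corrected with limma 3.58.1 (R 4.3.3, nec with detection p, offset 16), quantile normalised and put on the log2 scale. Probes detected at 0.01 on at least 3 arrays (13547) were fitted with 7 group means (17 residual degrees of freedom) and eBayes. Benjamini-Hochberg adjustment ran over all 13547 probes of each comparison, called below 0.05. The fit and the adjustment alone were tested on simulated log2 values in which few probes changed. Background correction, scaling and filter were not part of that test. The number of arrays limits the precision. The genes, lists and motifs were chosen with earlier results of these data known. Named with each array's value were the genes with the 8 largest called changes at 1 µM for 15 h, those called at 0.1 µM for 24 h and those with opposite calls between probes or groups. Array values of Mcm5, Mcm6, Plk1, Cdc20, Stk6 and Ris2 are given outside this rule. Promoters are RefSeq windows, and older symbols were updated through RefSeq (20514 probes matched). Alternatives covered background, scaling, filters, probe choice, slide blocks, array weights, variance settings, the authors' ratios and leaving out arrays.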

Additional observations from a re-analysis of the deposited data

Results flagged for a closer look

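In the untreated group, 1 of the 55 tested probes had an array far from the rest by Dixon's criterion, which chance meets in about 1 group in 20. Cdc20-2 read 7.39 on untreated replicate 6, against 6.28 to 6.62 on the other untreated arrays. The difference between 1 µM and 0.1 µM changed between 15 and 24 h, by a test of that change, for 5 of the 55 probes, all with a larger value at 24 h. Of all tested probes, 7.82% passed in that direction. By the brightest probe of each gene 3 of 35 passed, against 8.65% of all genes, so the share was near that of the array. The difference was larger at 24 h by 1.37 for Ccnd1-1, 1.33 for Ccnd1-3 and 1.14 for Ccnd1-4, and by 0.64 for Cdk2-1 and 0.67 for Top2a, on the log2 scale. For Ccnd1 the doses differed in favour of 1 µM at 24 h, while for Cdk2-1 and Top2a the lower level at 1 µM was less marked at 24 h than at 15 h.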

How the results depend on the processing

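No called change of the genes named turned its sign under any alternative run. Of the values of called changes, 2174 kept their side of the threshold and 292 did not. The number of the 55 probes called (main value first) moved most where few were called. At 1 µM for 5 h it was 1, and 0 under median centring, no filter, the brightest probe per gene, only the groups compared, variance trend and robust fit, and the authors' ratios, 13 with array weights, 26 without untreated replicates 5 and 6, and 0 to 10 on leaving out 1 array. At 8 h it was 16, and 6 under median centring, 2 with only the groups compared, 8 in the authors' ratios and 4 to 20 without 1 array (lowest without 1 µM 8 h replicate 1). At 15 h it was 38, and 25 of 35 genes by the brightest probe, and 33 to 38 without 1 array, and at 24 h 30, with 25 to 33. At 0.1 µM for 15 h it was 9, and 5 with no filter and by the brightest probe, 0 with only the groups compared, and 3 to 15 without 1 array (15 without untreated replicate 2, 3 without 0.1 µM replicate 1). At 0.1 µM for 24 h it was 3, and 7 with no background correction and with offset 50, 23 under median centring and in the authors' ratios, 6 with the stricter filter and with array weights, 8 with trend and robust fit, 0 with only the groups compared, 1 without untreated replicates 5 and 6, and 0 to 19 without 1 array (19 without untreated replicate 4, 0 without any 1 of the 0.1 µM arrays). Between the doses it was 27 at 15 h (22 to 23 without 1 array) and 12 at 24 h (21 with only the groups compared, 25 with array weights, 10 to 13 without 1 array). For the step from 8 to 15 h it was 24 (39 with array weights, 18 to 24 without 1 array), and for that from 15 to 24 h at 1 µM 11 (7 under median centring and in the authors' ratios, 6 by the brightest probe, 23 with array weights, 6 to 9 without 1 array). For the step at 0.1 µM it was 6 (3 under median centring, 14 with only the groups compared, 18 with array weights, 1 to 4 without 1 array). With slide as a replicate block, by the matching arrays or by the labels, 9 were called at 0.1 µM for 24 h and 11 for the step at 0.1 µM, and no other count moved by more than 1.5 times. The labels do not say that a slide marks a shared culture, and deviations of arrays on 1 slide correlated between -0.08 and 0.43 (median 0.23). Median centring shifted the median of all probes to -0.12 at 1 µM for 24 h, -0.13 at 0.1 µM for 15 h and -0.17 at 0.1 µM for 24 h, where the authors' ratios gave -0.11. It turned the risen and fallen counts of all probes to 2606 and 4322 (3597 and 3829 before), 602 and 1603 (1016 and 932) and 90 and 1967 (85 and 150), and those of the genes described at 1 µM for 8 h to 3 and 3 (3 and 13). The cause of these moves was not tested. For all 13547 probes the counts ranged from 0 to 2057 at 0.1 µM for 24 h. With array weights they rose too, from 6949 to 8145 between the doses at 24 h and from 4051 to 6365 for the step from 8 to 15 h. For the step from 15 to 24 h they went from 1385 to 3574 at 1 µM and from 1443 to 3173 at 0.1 µM. The larger counts with array weights in these comparisons were therefore not confined to the genes described. For most other settings no count over all probes is given here. Where no array of a group detected a probe, the change is a bound. Against untreated cultures this held for Tk1-1, Tk1-2, Lig1-3, Mcm3, Prim1 and Rrm2-2 at 1 µM for 15 h and for Ccnd1-4 at 8 h. For Ccne2 at 8 h no bound could be given.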
